A study of Homo sapiens with 2 samples.

Results

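The mitochondrial ribosomal proteins are encoded in the nucleus, made in the cytosol and imported into mitochondria, where they build the ribosome that translates the messenger RNAs of the mitochondrial genome. Genes named MRPL encode proteins of the large subunit, which holds the peptidyl transferase centre, and genes named MRPS encode proteins of the small subunit, which reads the messenger RNA. Some of these proteins have homologs in bacterial ribosomes and others are found in mitochondria alone. The only proteins this ribosome makes are core subunits of the respiratory chain and of ATP synthase, so its parts, the translation factors, the mitochondrial messenger RNAs and the nuclear respiratory chain subunits belong to the same supply line.

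Members were the genes whose name on the array begins with MRPL or MRPS and a digit. The array carried 92 such probes with 77 names, which were 76 proteins, 47 of the large and 29 of the small subunit by name, and 1 pseudogene, MRPL42P5. These stood among 27267 gene names on the array. Of the 76 protein genes, 75 were measured, 46 of the large and 29 of the small subunit, among 13720 genes measured in all. A gene was counted as measured where a probe gave signal well above background on both arrays in ALDH+ or in ALDH- cells, and its value is that of its brightest such probe. The gene not measured was MRPL1, whose only probe missed this bar, and MRPL42P5 missed it too.

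RMG1, a line of human ovarian cancer cells, was stained with ALDEFLUOR, a fluorescent substrate of aldehyde dehydrogenases (ALDH), and sorted into brightly stained cells (ALDH+, called cancer stem-like by the study) and dimly stained cells (ALDH-). No other agent or allele distinguished the populations. RNA of both was hybridised together on 2 arrays with the dyes exchanged, so that ALDH+ RNA carried Cy5 on one and Cy3 on the other. The labels and the results section of the study name RMG1 for the array, whereas its methods name another line, AMOC2. There was thus 1 sample of each population. The difference between arrays is technical error of labelling and hybridisation, no spread between sorts is known, and no p-value can be given. Values below are log2 ratios of ALDH+ over ALDH- signal with the technical SD of the 2 arrays.

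Markers of cell types were looked up, though a ratio between the populations does not identify the cells. All 8 epithelial and ovarian markers listed were measured, and their median ratio was -0.12, with 3 above 0 and 5 below. They ran from 0.057 (KRT8) to -0.74 ± 0.14 for PAX8, a transcription factor of the ovarian and tubal epithelium. Of 8 white blood cell markers 3 were measured, CD14 (0.45), PTPRC (0.035) and CD68 (-0.079). Of 6 fibroblast and endothelial markers 1 was, CDH5 (0.19). The median over all measured genes was -0.0030. Across all measured genes the ratios of the arrays correlated with r = 0.685, and across the 75 mitochondrial ribosomal protein genes with r = 0.695 (Spearman's rho 0.511). Both arrays held the same RNA, so these describe technical agreement only, and genes are not independent replicates. Without MRPS16, the gene farthest from 0, r over the other 74 was 0.606.

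The median ratio of mitochondrial ribosomal protein transcripts was 0.076 (0.075 with ALDH+ in Cy5 and 0.11 with ALDH+ in Cy3). When arrays were only median-centred, without the loess step that balances dyes along brightness, it was 0.27, and that of all measured genes was 0.071. In such bulk extracts, fewer cells with a transcript and less of it per cell cannot be told apart. Of 75 genes, 52 had a mean above 0 and 23 below it, against 49.5% above 0 among all measured genes. On both arrays alike, 37 were higher in ALDH+ cells and 14 lower, and the other 24 differed in sign between the arrays. Among all measured genes, also after loess, 33.6% were higher on both arrays and 36.2% were lower on both. Under median centring 71 members had a mean above 0 and 4 below it, and 1 was higher and 1 lower on both arrays. The shares of all genes were not computed under median centring, so these counts have no comparison. With loess no member passed 2-fold in either direction, against 0.211% of all genes more than 2-fold higher and 0.707% more than 2-fold lower. At 1.5-fold, a log2 ratio of 0.585, 1 member was higher (MRPL54) and 1 lower (MRPS16), against 1.5% and 4.61% of all genes. The middle of the group was also narrow. Means of 66 members (88.0%) lay within 0.3 of 0, as did 75.1% of all measured genes.

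**Figure D1:**
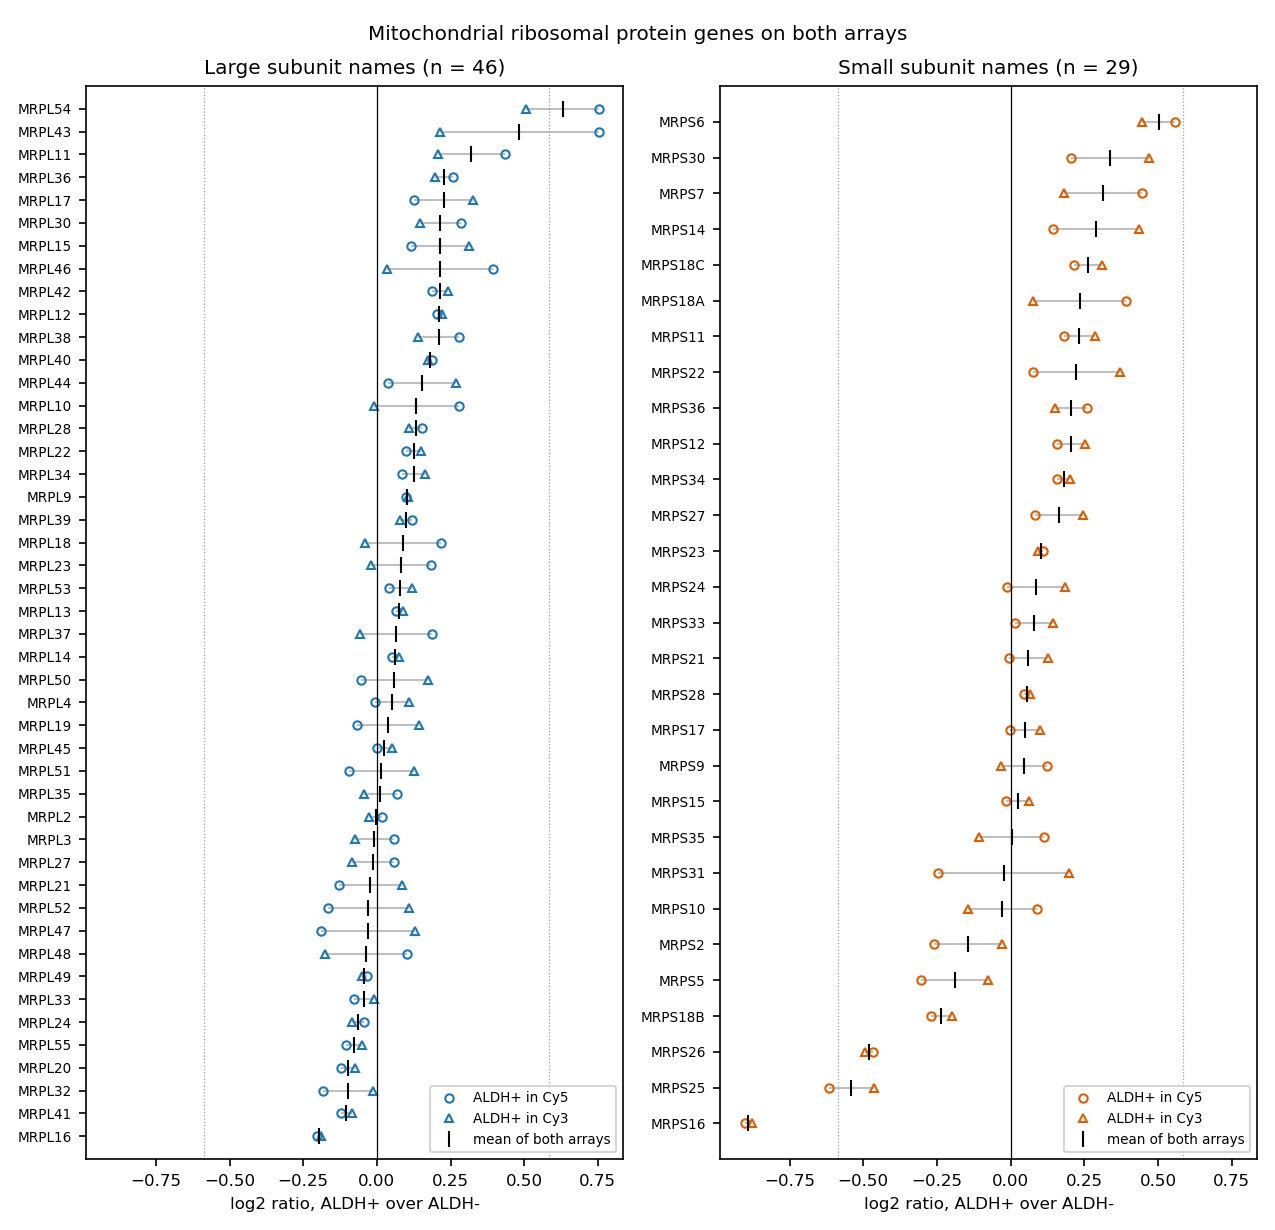
Log2 ratio of ALDH+ over ALDH- cells (x axis) for each measured mitochondrial ribosomal protein gene, large subunit names on the left (46 genes) and small on the right (29 genes), with the array that had ALDH+ in Cy5 as a circle, the array that had ALDH+ in Cy3 as a triangle and their mean as a bar. Dotted lines mark 1.5-fold. MRPL54 alone has a mean past the right line and MRPS16 alone past the left one.

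The subunits had close medians. The median ratio of large subunit genes was 0.071 (0.066 with ALDH+ in Cy5 and 0.097 with ALDH+ in Cy3) and small subunit genes one of 0.079 (0.084 and 0.13). The difference of the medians, large minus small, was -0.0079, and on the single arrays -0.018 and -0.031. The technical SD of the difference over the arrays was 0.0092. In the large subunit 31 of 46 genes were above 0 and in the small subunit 21 of 29. No large subunit gene lay below -0.19, the value of MRPL16, whereas MRPS16 (-0.89), MRPS25 (-0.54), MRPS26 (-0.48) and MRPS18B (-0.24) did. Second probes of MRPS16 and MRPS18B read 0.078 and 0.19, the probe of MRPS25 was dim, and under median centring MRPS18B stood at 0.016.

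Names do not always follow structure. MRPS30 and MRPS18A are found in the large subunit of the human ribosome, and the gene called MRPS36 on the array, now KGD4, encodes a component of the 2-oxoglutarate dehydrogenase complex. With MRPS30 and MRPS18A moved and MRPS36 left out, the medians were 0.078 (48 genes) for the large and 0.058 (26 genes) for the small subunit, and their difference turned to 0.020. This change of sign came from reassigning 3 genes. By name the single arrays gave -0.018 and -0.031, both farther from 0 than the -0.0079 of the means. The technical SD of those 2 values is therefore no measure of error for the -0.0079 or for this change. MRPS30 had ratios of 0.21 and 0.47 (mean 0.34 ± 0.19), MRPS18A of 0.39 and 0.077 (0.23 ± 0.22) and MRPS36 of 0.26 and 0.15 (0.21 ± 0.077), each above 0 on both arrays.

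Grouped by origin, proteins with bacterial homologs and those particular to mitochondria had similar medians. In the large subunit (by structure) the medians were 0.062 for 29 genes with a bacterial homolog and 0.099 for 19 without. In the small subunit they were 0.058 for 16 with one and 0.041 for 10 without. The small subunit genes counted as without a bacterial homolog had the widest middle range of these 4 groups, from -0.18 to 0.15 between quartiles. The grouping counted MRPS18A, in the large subunit, and MRPS18B, in the small, as without one, though both are paralogs of bacterial S18. MRPS18B stood at -0.24 and its second probe at 0.19, and the groups were not recomputed without it.

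The highest member was MRPL54, a mitochondria-specific protein of the large subunit. Its ratios were 0.75 with ALDH+ in Cy5 and 0.51 with ALDH+ in Cy3, a mean of 0.63 ± 0.17 or 1.55-fold, and both arrays placed it well above 0. Its mean spot signal in ALDH+ and ALDH- cells was 1798.5 and 598.1 on the first array and 821.6 and 913.9 on the second, before the dyes were balanced. MRPL43, another mitochondria-specific protein of the large subunit, followed with 0.75 and 0.21 (0.48 ± 0.38). It had the largest difference between arrays among the members in its dye-dependent component, 0.27, and only the array with ALDH+ in Cy5 placed it past 1.5-fold. MRPL11, which binds the RNA at the base of the stalk where translation factors dock, had 0.44 and 0.21 (0.32 ± 0.16).

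The other parts of that stalk leaned the same way on the mean. MRPL12, whose copies form the mobile stalk, had 0.20 and 0.22 (0.21 ± 0.012), the closest pair of arrays among the 3. MRPL10, which anchors MRPL12, had 0.28 and -0.010 (0.13 ± 0.20), so the arrays disagreed on its sign. At the low end of the large subunit stood MRPL16, a core protein, with -0.20 and -0.19 (-0.19 ± 0.0096), MRPL41 with -0.12 and -0.085, and MRPL32, which is matured by a protease of the inner membrane, with -0.18 and -0.014. Under median centring the mean of MRPL16 was -0.039, and those of MRPL41 and MRPL32 turned to 0.15 and 0.12. A second, dimmer probe of MRPL32 read -0.044 and 0.14 (0.048), so its direction also depended on the probe. MRPL47, beside the exit of the peptide tunnel, had -0.19 and 0.13 and no agreed sign.

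In the small subunit MRPS6, which has a bacterial homolog, was highest with 0.56 and 0.45 (0.50 ± 0.080), from a probe printed in 10 spots on each array. Its gene overlaps SLC5A3, a myo-inositol transporter, whose ratio was -0.48. MRPS7, which helps to nucleate the head of the small subunit, had 0.45 and 0.18 (0.31 ± 0.19). MRPS12, part of the decoding centre, had 0.16 and 0.25 (0.21 ± 0.066). MRPS24 had -0.012 and 0.18, and MRPS28 had 0.044 and 0.067. MRPS2 had -0.26 and -0.028 (-0.14 ± 0.16), and its mean turned to 0.16 under median centring. These members of the subunit core thus lay on both sides of 0.

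The 3 paralogs of bacterial S18 differed. MRPS18C, which occupies the bacterial position in the small subunit, had 0.21 and 0.31 (0.26 ± 0.067), MRPS18A, in the large subunit, was above 0 as given, and MRPS18B, another position in the small subunit, had -0.27 and -0.20 (-0.24 ± 0.051). MRPS18B has a second measured probe, however, toward the start of the gene (chr6:30587318-30587377, hg19), which read 0.21 and 0.16 (0.19). The brighter one lies at chr6:30594091-30594150. The direction of MRPS18B therefore depended on the probe, and under median centring its brighter probe stood at 0.016.

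The low values of MRPS26 and MRPS25 came from 1 probe each. MRPS26, a mitochondria-specific protein, had -0.47 and -0.49 (-0.48 ± 0.019), and under median centring its mean was -0.23. MRPS25, also mitochondria-specific, had -0.62 and -0.46 (-0.54 ± 0.11), but its probe was dim, with a mean spot signal of 119.2 in ALDH+ and 230.2 in ALDH- cells on the array with ALDH+ in Cy5, where negative control spots had medians of 45.1 and 135.2. In ALDH+ cells only 1 of the arrays read it clearly over its background. Its ratio reached -1.06, past 2-fold, with the log ratio of the array software.

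MRPS16, the lowest member, is a small subunit protein with a bacterial homolog. Its brighter probe gave -0.90 and -0.88 (-0.89 ± 0.017), or 1.85-fold lower in ALDH+ cells. Its other measured probe gave 0.31 and -0.16 (0.078), so the probes differed by 0.97. The direction of MRPS16 therefore depended on the probe.

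Of the 60 bases of the brighter probe 19 lay in a run of 16 or more bases that it shared with 2 probes of other genes, which read -1.20 (SLC66A1) and -1.10 (a transcript without a gene name), both past 2-fold. A shorter run of 10 of these 19 bases was found in 18 measured probes of as many other genes or transcripts, these 2 among them. Their median ratio was -0.82, and 14 of 18 were below 0, 13 of them on both arrays. Of these 18 probes, the first 2 included, 12 were more than 1.5-fold and 7 more than 2-fold lower. Of all 16682 measured probes 4.29% were more than 1.5-fold lower, and their median was -0.00080. Of all measured genes 0.707% were more than 2-fold lower. Among the 18, probes named for XRCC3 and HERC4 read -1.04 and -0.89, and the highest, for VNN2, read 0.45. The part of the shared bases in the value of MRPS16 was not tested. With probes that share 16 bases left out, MRPS16 stood at 0.078 and no member was more than 1.5-fold lower. Across the members, 7 of 92 probes shared such a run with a probe of another gene, and the share over all probes was not computed.

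**Figure D2:**
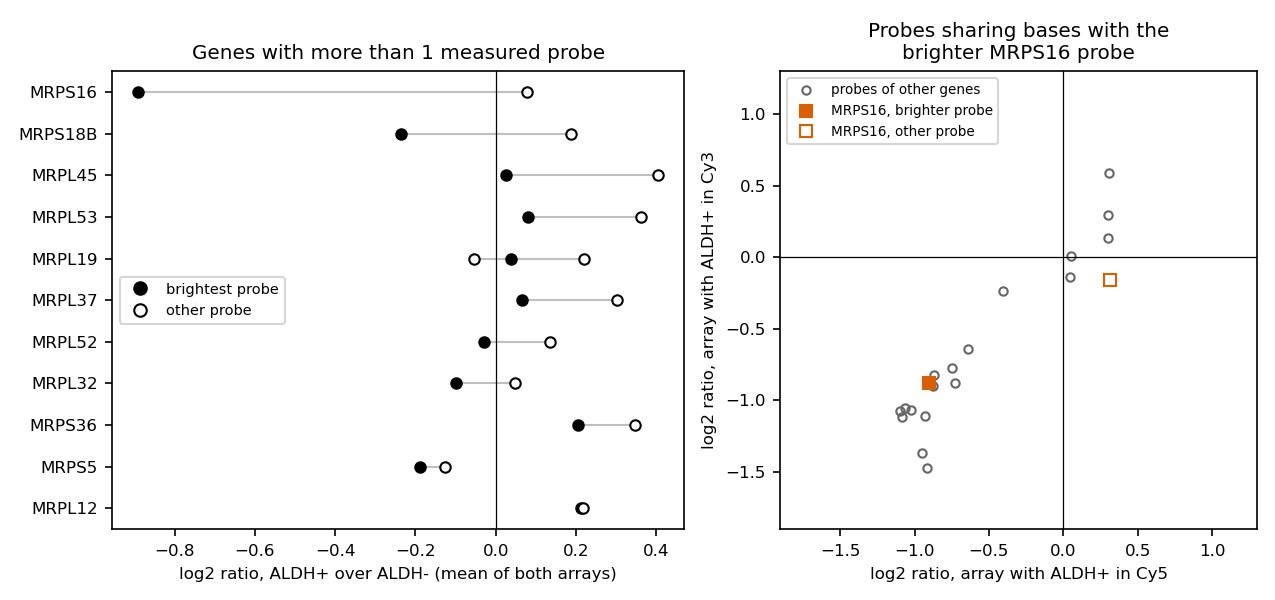
Left, log2 ratios (mean of both arrays) of every measured probe of the 11 members with more than 1, the brightest probe filled. The MRPS16 probes lie 0.97 apart and those of MRPL12 almost coincide. Right, the 2 arrays' log2 ratios of the 18 probes of other genes that hold a run of 10 of the shared bases (circles) and of the MRPS16 probes (squares), where the brighter MRPS16 probe lies among the circles at the lower left.

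Of the members, 11 had more than 1 measured probe, and the range of a gene's probes had a median of 0.24, from 0.0059 (MRPL12, whose probes overlap) to that of MRPS16. Over the 2508 genes with several measured probes the median range was 0.17, and it passed 0.5 in 7.38% of them, where 1 of the 11 members did. In 5 of the 11 the probes had opposite signs. How often this occurred over the 2508 genes was not computed, so the 5 have no comparison. MRPL45, a protein that ties the ribosome to the inner membrane, had the widest range in the large subunit, with both probes above 0. Its probe at chr17:36478912-36478971 gave 0.00060 and 0.050, and its dimmer probe, which spans an intron at chr17:36454586-36455369, gave 0.46 and 0.35. The 8 probes of members printed 10 times had SDs between spots of 0.017 to 0.060 within an array.

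Probes that span an intron in the genome read spliced RNA. There were 10 such probes among the 92. Those of MRPL54, MRPS7, MRPS18C and MRPL45 are shown as members described above, the highest member among them, 5′ to 3′, all on the plus strand at chr19:3765301-3767289, chr17:73258756-73258930, chr4:84382182-84382329 and the MRPL45 position above (hg19). Each leaves at least 1 frame free of stop codons.
MRPL54: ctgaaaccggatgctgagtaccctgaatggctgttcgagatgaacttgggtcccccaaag
MRPS7: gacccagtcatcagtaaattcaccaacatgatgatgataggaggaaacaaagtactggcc
MRPS18C: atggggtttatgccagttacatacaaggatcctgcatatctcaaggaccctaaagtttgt
MRPL45: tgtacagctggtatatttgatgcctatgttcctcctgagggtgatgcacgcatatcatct

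Across the 75 members the Spearman correlation of ratio and mean signal was -0.403, dimmer probes having the higher ratios, and across all measured genes it was -0.038. The points share their arrays and dyes, and signal was used to balance the dyes, so this is a description. For 74 members each array read both populations clearly over background, and no member had a saturated spot.

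Other genes of the mitochondrial translation supply line were described in the same way. The 8 listed with other names had a median of -0.048, 3 above 0. Among them DAP3, a GTP-binding protein of the small subunit, had -0.21 and 0.046 (-0.082 ± 0.18, turning to 0.24 under median centring), GADD45GIP1, of the large subunit, 0.20 and -0.055 (0.073 ± 0.18), and AURKAIP1, of the small subunit, -0.098 and -0.27 (-0.18 ± 0.12, turning to 0.088 under median centring). Translation factors had a median of 0.043 (8 of 13 above 0), aminoacyl-tRNA synthetases 0.0048 (9 of 18) and assembly factors 0.0068 (14 of 25). No gene of these 4 lists passed 1.5-fold. Genes of mitochondrial transcription and RNA handling had a median of -0.030, 7 of 18 above 0, and 1 passed 1.5-fold, FASTKD5 at -0.94 ± 0.34.

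The cytosolic ribosome and the nuclear share of the respiratory chain were set beside these genes. Nuclear respiratory chain subunits had a median of 0.052, 50 of 75 above 0. Cytosolic ribosomal proteins had 0.089, 55 of 78 above 0, but their medians on the arrays were 0.22 and -0.072. After loess those of the mitochondrial ribosomal proteins were 0.075 and 0.11, without a dye-dependent difference of that size. Under median centring, however, only 1 of the 75 members was higher and 1 lower on both arrays. The messenger RNAs that the mitochondrial ribosome translates had lower values. All 12 measured were lower on both arrays, from -1.68 (ND4L) to -0.49 (ND3), with a median of -1.21, and 9 of 12 were more than 2-fold lower. Under median centring the medians were 0.34 for respiratory chain subunits, 0.57 for cytosolic ribosomal proteins and -0.81 for the mitochondrial messenger RNAs, and those of the other lists ran from 0.051 to 0.21. With loess, the highest of the 12 lay below 73 of the 75 members. No test of the difference between lists was made with 1 sample of each population.

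**Figure D3:**
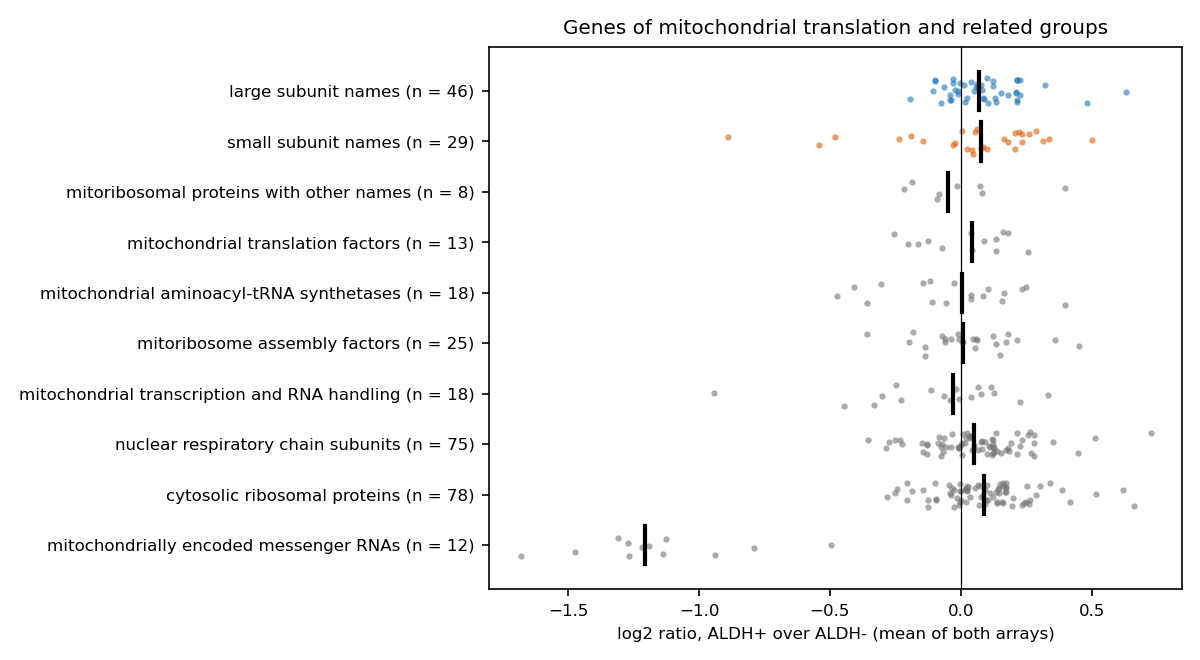
Log2 ratios of ALDH+ over ALDH- cells (mean of both arrays, x axis) for mitochondrial ribosomal proteins of each subunit and for related gene lists, 1 point a gene and a bar at the median. After loess the medians of all lists but the last run from -0.048 to 0.089, and the 12 mitochondrially encoded messenger RNAs centre on -1.21.

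Several of these genes share a start region with a gene on the opposite strand. Among protein-coding genes in the RefSeq annotation, 18 head-to-head pairs had start sites at most 1000 bases apart, and both genes were measured in 16. The signs of the means matched in 9 of 16, and in 11 the means differed by less than 0.2. Among all measured genes 49.5% had a mean above 0 and 75.1% lay within 0.3 of 0. Those shares describe single genes and are no comparison for pairs. Whether these neighbours match more often than unrelated genes was not tested. One pair joins the subunits. MRPL46 had 0.39 and 0.035 (0.21 ± 0.25) and MRPS11 had 0.18 and 0.29 (0.23 ± 0.075). The partner of MRPL54, APBA3, an adaptor protein, had 0.49 and 0.38 (0.44 ± 0.076), so the highest member had a neighbour that was also above 0 on both arrays. MRPS12 is paired with SARS2, the mitochondrial seryl-tRNA synthetase, and they had 0.21 ± 0.066 and 0.10 ± 0.083. Other pairs diverged. MRPL40 had 0.18 ± 0.011 and HIRA, a histone chaperone, -0.51 ± 0.035, and MRPS7 had 0.31 beside -0.18 ± 0.16 for GGA3, a sorting adaptor.

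**Figure D4:**
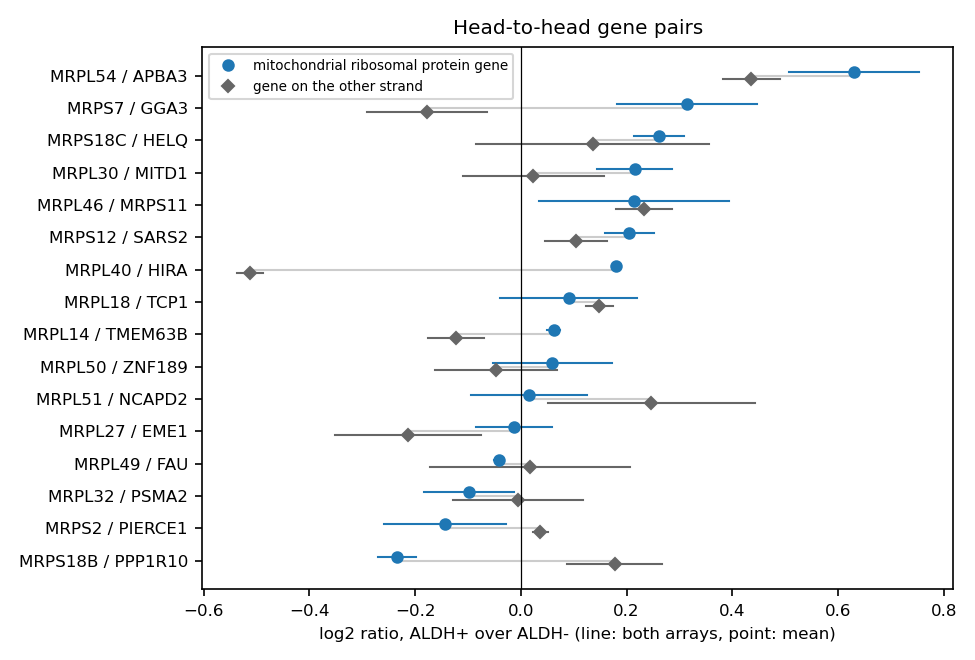
Log2 ratios of ALDH+ over ALDH- cells (x axis) for 16 head-to-head pairs, the mitochondrial ribosomal protein gene as a circle and the gene on the opposite strand as a diamond (for MRPL46 the partner is MRPS11), with lines from one array to the other. MRPL54 and APBA3 are both above 0.38 on every array, and MRPL40 and HIRA lie on opposite sides of 0.

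The start regions were searched for 4 motifs on both strands in RefSeq windows of 300 bases (250 before to 50 after the start, GRCh38.p14), which were given for 68 of the 76 genes. CCGGAAG, the core bound by ETS factors such as GABP, was in the windows of 29 of 68 genes (42.6%) and of 16.5% of 15843 protein-coding genes. AAGATGGCG, bound by YY1, was in 13 (19.1%) against 3.21%. GCATGCGC, the core of the NRF1 site, was in 6 (8.82%) against 4.89%, and TATAAA in 4 (5.88%) against 12.4%. CCGGAAG was in 17 of 40 large and 12 of 28 small subunit genes, and AAGATGGCG in 8 and 5. The ends of these motifs can share 3 letters, and no member had that overlap, though 4 had both motifs in 1 window. The 29 measured members with CCGGAAG had a median ratio of 0.079 and the 38 without 0.076. For AAGATGGCG the medians were 0.12 (13 genes) and 0.064 (54 genes). For GCATGCGC they were 0.047 (6 genes) and 0.079 (61 genes), and for TATAAA 0.15 (4 genes) and 0.066 (63 genes). These differences were not tested. A match is a run of letters and not a measured site.

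Stretches from 120 bases before to 30 after the start are shown for MRPL54, the highest member, and for MRPS12 and MRPL46, each in a head-to-head pair, with CCGGAAG or AAGATGGCG on either strand in capitals. In GRCh38.p14 they are chr19:3762562-3762711 (plus strand), chr19:38930824-38930973 (plus strand) and chr15:88467359-88467508 (minus strand).
MRPL54: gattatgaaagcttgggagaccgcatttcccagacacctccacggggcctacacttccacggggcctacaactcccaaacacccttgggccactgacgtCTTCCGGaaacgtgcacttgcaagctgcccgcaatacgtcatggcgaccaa
MRPS12: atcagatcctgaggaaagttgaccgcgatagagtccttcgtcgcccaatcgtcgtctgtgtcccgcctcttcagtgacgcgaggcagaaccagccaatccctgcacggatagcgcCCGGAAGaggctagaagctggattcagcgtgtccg
MRPL46: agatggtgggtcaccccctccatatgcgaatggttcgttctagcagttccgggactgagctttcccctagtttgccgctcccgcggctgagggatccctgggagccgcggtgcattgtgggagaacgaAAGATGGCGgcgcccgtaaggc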

How the data were processed

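Total RNA of sorted RMG1 cells was labelled from an oligo dT primer and hybridised to Agilent 44k arrays. The authors deposited scanner files with spot intensities and the software's log10 ratios, and a joined table of those log10 ratios turned to ALDH+ over ALDH-. The file headers name Agilent Feature Extraction 10.7.3.1 and the submitters' processing notes name 8.5.1.1. From the deposited mean intensities, local background was corrected with normexp (offset 50) and the dyes were balanced by loess within each array with limma 3.58.1 in R 4.3.3. Control and outlier spots were left out, spots of a probe were averaged and each ratio was turned to ALDH+ over ALDH-. The arrays are a dye swap of the same RNA pair and count as 1 sample of each population, so no test was run. Accessions of 89 of the 92 member probes matched RefSeq, and members keep the name on the array. Members, lists and named genes were chosen with earlier results of these data known. Named were the 3 highest and 3 lowest genes of each subunit, those past 1.5-fold, those whose probes differed by over 0.5, and a set picked by role or name. The number of arrays limits the precision. The normalization was tested on simulated data with changes larger than those of the members. That simulation does not test ratios of the members' size or the choice of loess over median centring.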

Additional observations from a re-analysis of the deposited data

How the results depend on the processing

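No paired analysis was possible because each population has 1 sample and no test was made. Under median centring in place of loess the median of all measured genes was 0.071, those of the large subunit, the small subunit and all members were 0.27, 0.28 and 0.27, 1.5-fold was passed upward by 3 members and downward by 0, and 1 member was higher and 1 lower on both arrays. With the array software's own ratios, and likewise with the joined table, the large subunit median was 0.095, the difference of the subunits 0.0022, and 2 members were more than 1.5-fold and 1 more than 2-fold lower (MRPS25 at -1.06). With an offset of 10, 2 members were more than 1.5-fold lower. With the mean over the probes of a gene the subunits differed by 0.0078 and 0 members were more than 1.5-fold lower, and with subunits by structure they differed by 0.020. On the array with ALDH+ in Cy5 alone the subunits differed by -0.018, and 2 members were more than 1.5-fold higher and 2 lower. On the array with ALDH+ in Cy3 alone the medians were 0.097, 0.13 and 0.11, the difference -0.031 and 0 members were more than 1.5-fold higher. Leaving out probes that share 16 bases, chosen after seeing the data, gave 0 members more than 1.5-fold lower and MRPS16 at 0.078. The cause of these shifts was not tested. Of 311 values of the 26 named genes under alternatives, 13 had the other sign. Several of these genes were named for lying farthest from 0, so this count does not describe the other members. Of all 75 members, 22 changed sign over 6 ways of treating background and dyes. The mean stayed above 0 in all 6 for 49 members and below 0 for 4. Other settings were no background correction, plain subtraction, no filter on dim probes, or signal required in both populations. With these the medians and counts of members moved by less than the technical SD or by less than 1.5 times. For the difference of the subunits that SD is no measure of error, as stated above. Signal over background limited MRPS25, whose ratio ran from -1.06 to -0.45 over 6 ways of treating background and dyes.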
